A study of Homo sapiens with 9 samples.

Results

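The NFAT transcription factors and the phosphatase that activates them were examined in undifferentiated Caco-2 cells (uCaco-2) by RNA sequencing. The set held 9 genes, taken by symbol from a table of 60591 symbols: the calcium-regulated factors NFATC1, NFATC2, NFATC3 and NFATC4, the related factor NFAT5, the calcineurin inhibitor RCAN1, and the calcineurin catalytic subunits PPP3CA, PPP3CB and PPP3CC. Caco-2 is an established human colon adenocarcinoma line with enterocyte-like properties, and a single line stands here for the intestinal epithelium. The cells were kept for 24 h in fresh medium (Control), with 300 μM cobalt (II) chloride (CoCl2), or with 5 μM of the oxyquinoline derivative 4896-3212 (OD), and all 3 groups contained 0.5% DMSO. CoCl2 and OD are chemical activators of hypoxia-inducible factor (HIF), and the study asked which genes respond to them. Each group had 3 libraries, described by the study as biological replicates.

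In resting cells the NFATC proteins are phosphorylated and held in the cytoplasm. A rise in calcium switches on calcineurin, a heterodimer of a catalytic A subunit and a regulatory B subunit, and calcineurin then strips phosphates from NFATC proteins so that they enter the nucleus, often to act with AP-1 factors. Kinases such as DYRK1A, GSK3 and casein kinase 1 put the phosphates back, RCAN1 is both a target and an inhibitor of the pathway, and NFAT5 answers to osmotic stress rather than to calcineurin.

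All values below are of transcripts, and neither phosphorylation nor the place of the proteins in the cell was measured. Levels are counts scaled to library size with TMM factors (CPM). Of the 9 genes, 8 were abundant enough to be tested among 15944 genes, and NFATC4 is described by its counts. A gene was called when the adjusted p of edgeR's quasi-likelihood test (Benjamini-Hochberg) was under 0.05 and the log2 fold change was above 1 in size. The same control libraries served both treatments, so the changes with CoCl2 and with OD are not independent of each other.

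The promoters of 5 of the 9 genes were in the RefSeq table used here, from 250 bases before to 50 bases after each annotated start, and NFAT5, PPP3CA, PPP3CB and PPP3CC were missing from it. The start regions of NFATC1, RCAN1 and NFATC3 are shown because the text turns on these genes, and the gene-level counts add up transcripts from different starts. For RCAN1, 2 of its 6 starts are shown, the outermost one and the internal one with the most GGAAA matches. Capitals mark ACGTG, the core of a hypoxia response element, and GGAAA, the core of an NFAT site, on either strand (CACGT and TTTCC on the other strand). Coordinates are of GRCh38.p14.
NFATC1, first start, chr18:79395680-79395979, plus strand: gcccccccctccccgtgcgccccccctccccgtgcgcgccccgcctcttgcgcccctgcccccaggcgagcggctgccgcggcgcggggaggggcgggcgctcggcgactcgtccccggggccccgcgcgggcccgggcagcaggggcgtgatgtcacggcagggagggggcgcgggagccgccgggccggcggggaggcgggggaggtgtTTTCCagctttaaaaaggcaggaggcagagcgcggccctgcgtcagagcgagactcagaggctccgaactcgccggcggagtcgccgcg
NFATC1, second start, chr18:79400049-79400348, plus strand: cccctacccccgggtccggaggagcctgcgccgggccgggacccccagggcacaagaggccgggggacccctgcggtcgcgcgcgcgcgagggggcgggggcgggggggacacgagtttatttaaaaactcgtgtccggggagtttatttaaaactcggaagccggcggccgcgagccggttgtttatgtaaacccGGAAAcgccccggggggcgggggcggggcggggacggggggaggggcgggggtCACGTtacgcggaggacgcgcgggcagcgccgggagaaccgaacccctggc
NFATC3, chr16:68085120-68085419, plus strand: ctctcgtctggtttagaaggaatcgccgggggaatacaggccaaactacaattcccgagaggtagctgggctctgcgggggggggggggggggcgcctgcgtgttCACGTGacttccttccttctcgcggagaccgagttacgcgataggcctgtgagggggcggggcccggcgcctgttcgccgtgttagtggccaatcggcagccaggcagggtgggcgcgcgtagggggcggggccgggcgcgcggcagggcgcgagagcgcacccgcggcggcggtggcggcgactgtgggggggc
RCAN1, outermost start, chr21:34615064-34615363, minus strand: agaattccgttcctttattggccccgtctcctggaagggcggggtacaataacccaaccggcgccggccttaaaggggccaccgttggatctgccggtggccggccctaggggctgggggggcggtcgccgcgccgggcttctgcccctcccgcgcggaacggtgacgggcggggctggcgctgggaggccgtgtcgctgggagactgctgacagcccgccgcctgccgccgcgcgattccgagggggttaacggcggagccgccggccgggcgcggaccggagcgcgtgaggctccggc
RCAN1, internal start, chr21:34526773-34527072, minus strand: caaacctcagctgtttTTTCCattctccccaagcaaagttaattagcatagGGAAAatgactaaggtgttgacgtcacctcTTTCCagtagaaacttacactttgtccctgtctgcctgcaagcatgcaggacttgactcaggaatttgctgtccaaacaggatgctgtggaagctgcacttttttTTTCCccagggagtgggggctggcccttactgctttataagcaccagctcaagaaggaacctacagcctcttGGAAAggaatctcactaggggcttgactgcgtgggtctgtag

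The internal RCAN1 start held 5 matches to GGAAA, a number reached or passed in 0.74% of all 35116 promoters. This start was picked for its number of matches, so that share does not measure how unusual it is. The outermost RCAN1 start held 0 matches to either motif. The second NFATC1 start held 1 match to ACGTG and 1 to GGAAA, and the first start held 1 to GGAAA alone. In NFATC3 the 2 matches to ACGTG overlap, because CACGTG reads the same on both strands. Over all 14 promoters of the 5 genes, 4 held ACGTG and 7 held GGAAA, while 21.4% and 61.2% of all promoters did. A match is a string of letters and not a measured binding site.

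With CoCl2, 2 of the 8 tested genes were called, RCAN1 higher and PPP3CB lower, where 43.2% of all tested genes were called (19.9% higher and 23.4% lower). With OD, 2 of the 8 were called, NFATC1 higher and PPP3CB lower, against 13.3% of all tested genes (9.09% higher and 4.16% lower). Between the treatments, only PPP3CB was called, lower with CoCl2, against 41.3% of all tested genes (23.8% lower). By adjusted p alone, 5 genes were higher and 1 lower with CoCl2, where 83.2% of all tested genes passed in either direction (40.4% higher and 42.8% lower). By the same measure 6 were higher and 1 lower with OD, against 65.6% of all tested genes (32.3% higher and 33.3% lower), and between the treatments 4 were higher in CoCl2 and 2 lower, against 83.5% (40.2% higher and 43.2% lower). The libraries of the groups did not overlap for 6 of the 8 genes with CoCl2 (83.4% of all tested genes), for 7 with OD (68%), and for 6 between the treatments (83.8%). The median log2 fold change of the 8 genes was 0.53 with CoCl2 and 0.31 with OD, beside −0.05 and −0.01 over all tested genes. The 2 of 8 called with CoCl2 were a smaller share than that of all genes, and the members are described singly below.

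**Figure D1:**
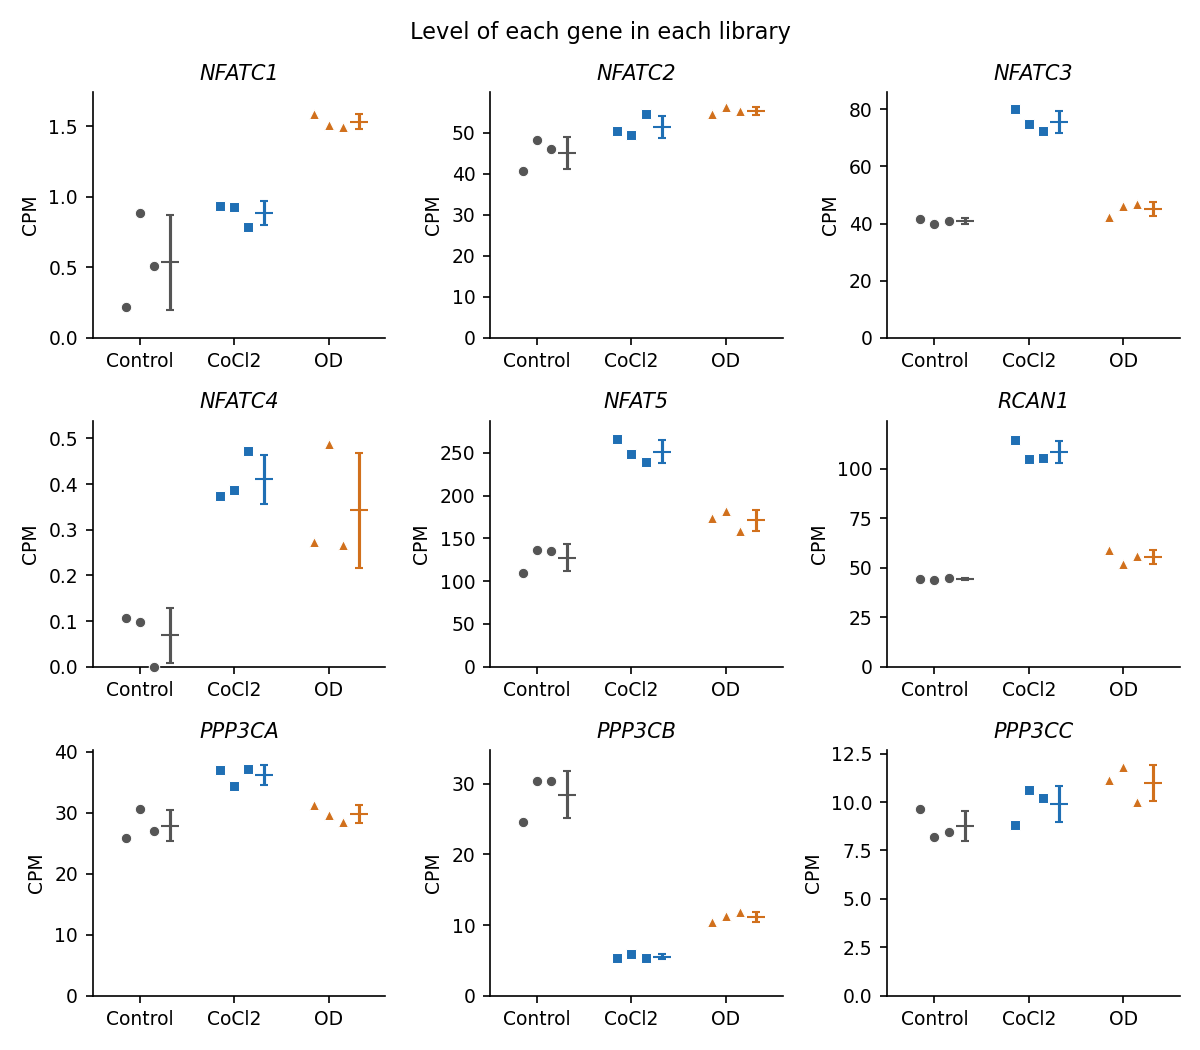
Level of each of the 9 genes in each library, in CPM on linear axes from 0, by group. Points are libraries and the cross beside them is the mean ± SD (n = 3). NFATC1 is highest in the 3 OD libraries, RCAN1, NFATC3 and NFAT5 are highest in the 3 CoCl2 libraries, and PPP3CB is lower in all 6 treated libraries than in any control library.

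NFATC1 is an NFAT factor known from T cells, osteoclasts and heart valves, and its gene lies on the plus strand at chr18:79395856-79529325. It was sparse in these cells. The control libraries held 4, 18 and 9 counts, the CoCl2 libraries 15, 12 and 15, and the OD libraries 35, 34 and 28, in the order of their replicate numbers. The OD libraries were all higher than the other 6, and the second control library lay inside the range of the CoCl2 libraries. In CPM the means were 0.534 ± 0.335 in Control, 0.883 ± 0.0833 with CoCl2 and 1.53 ± 0.0524 with OD (SD, n = 3).

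NFATC1 rose with OD, by 1.48 on the log2 scale (SE 0.307, a 2.79-fold increase, edgeR adjusted p = 2.21e-05). With CoCl2 the difference did not pass, at a log2 fold change of 0.68 with a 95% interval from −0.06 to 1.41 (edgeR adjusted p = 0.0788). The NFATC1 level with CoCl2 was lower than with OD, at −0.80 (SE 0.288, edgeR adjusted p = 0.00869), a difference that did not pass with DESeq2 (adjusted p = 0.109 on all libraries, and 3.24e-05 to 0.109 over 16 alternatives). The first and second control libraries decided much of this, in opposite directions. Without the second, which held 18 counts, the CoCl2 difference passed, at 1.27 (edgeR adjusted p = 0.00717), and the OD change was 2.08 (edgeR adjusted p = 2.2e-06). Without the first, which held 4 counts, the CoCl2 difference shrank to 0.31 (edgeR adjusted p = 0.438) and the OD change was 1.13 (edgeR adjusted p = 0.00129). Over 16 alternative settings the NFATC1 adjusted p lay between 0.00717 and 0.656 for CoCl2 and between 2.2e-06 and 0.00262 for OD. The OD call was lost with glmTreat, which tests against a log2 fold change of 1, and NFATC1 was not tested when at least 10 counts were asked of every library.

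NFATC2, best known as the main NFAT protein of resting T cells, had many more counts than NFATC1 and smaller differences. Its level was 40.6, 48.2 and 45.9 CPM in Control, 50.4, 49.5 and 54.4 CPM with CoCl2, and 54.4, 56.2 and 55.3 CPM with OD. Both treated groups lay above the control libraries, by margins that were small beside the levels. NFATC2 rose with OD by 0.30 on the log2 scale (SE 0.0573, edgeR adjusted p = 6.29e-06). With CoCl2 the change was 0.20 (SE 0.0594, edgeR adjusted p = 0.002) after TMM scaling, but it turned to −0.31 (edgeR adjusted p = 1.23e-05) when libraries were scaled by their total count alone. Over the 17 alternatives the NFATC2 adjusted p for CoCl2 lay between 1.23e-05 and 0.0621. Between the treatments NFATC2 differed by −0.10 (CoCl2 over OD), with a 95% interval from −0.22 to 0.01 (edgeR adjusted p = 0.098). This difference passed in 5 of 17 alternatives, at −0.65 by total count (edgeR adjusted p = 8.73e-14) and between −0.17 and −0.12 with no filter, with at least 10 counts in every library, without Control replicate 1 and without CoCl2 replicate 3, and its adjusted p reached 0.344 at most.

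That turn comes from the scaling of the CoCl2 libraries, whose TMM factors were 0.7698 to 0.7946, against 1.108 to 1.15 in the other 6. Scaling by total count moved the median of all tested genes from −0.05 to −0.55 for CoCl2 against Control, and from −0.01 to 0.03 for OD against Control. Small changes with CoCl2 therefore depend on the scaling, and shares within a library, which do not, are given below for both families.

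NFATC3, a widely expressed family member, lies on the plus strand at chr16:68084751-68229259. Its level was 41.7, 39.8 and 41.1 CPM in Control, 80.0, 74.8 and 72.3 CPM with CoCl2, and 42.3, 46.3 and 46.8 CPM with OD. The CoCl2 libraries stood clear of the other 6, and the OD libraries lay just above the control libraries. NFATC3 rose with CoCl2 by 0.89 (SE 0.0562, a 1.85-fold increase, edgeR adjusted p = 1.28e-22), short of the fold needed for a call, and it stayed higher when scaled by total count (0.38). With OD the difference was 0.14 (SE 0.0576, edgeR adjusted p = 0.0267), and its adjusted p lay between 0.00502 and 0.0999 over 17 alternatives. The OD difference lost significance in 7 of them: with DESeq2 on all 9 or on 6 libraries, with no filter, and without Control replicate 2 or 3 or OD replicate 2 or 3, the weakest being 0.12 without Control replicate 2 (edgeR adjusted p = 0.0999). Other annotated genes share 33.0% of the NFATC3 exonic bases on the opposite strand and 19.0% on the same strand, and although the libraries were stranded, the strand setting of the counting is not given in the sources used here, so NFATC3 counts are uncertain to that extent.

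NFATC4 was close to absent. Its counts were 2, 2 and 0 in Control, 6, 5 and 9 with CoCl2, and 6, 11 and 5 with OD. The sums were 4 in Control (exact Poisson 95% interval 1.09 to 10.2), 20 with CoCl2 (12.2 to 30.9) and 22 with OD (13.8 to 33.3), in libraries of 15998136 to 24209427 counts. All 6 treated libraries held more NFATC4 counts than any control library. Per scaled library size, the summed count was 5.91 times as high with CoCl2 as in Control (exact 95% interval 1.98 to 23.8), 4.93 times as high with OD (1.68 to 19.7), and 1.2 times as high with CoCl2 as with OD (0.62 to 2.3). These intervals cover counting error only.

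Per kilobase of exon, NFATC2 and NFATC3 made up nearly all NFATC transcripts, and their balance differed with CoCl2. NFATC2 took 53.5% ± 2.6 of the summed CPM per kilobase of the 4 NFATC genes in Control, 41.5% ± 2.2 with CoCl2 and 55.6% ± 1.0 with OD (SD, n = 3). NFATC3 took 45.9% ± 2.9, 57.5% ± 2.2 and 42.6% ± 1.1. Per kilobase, NFATC3 was thus the larger part in all 3 CoCl2 libraries and the smaller part in the other 6. Before length scaling, Control replicate 1 held 775 NFATC3 and 755 NFATC2 counts, so the order there rests on the exon lengths. The uncertainty of the NFATC3 counts from shared exonic bases, given above, applies to these shares too. The CoCl2 and control shares did not overlap for either gene, which gives an exact two-sided permutation p of 0.1, the smallest that 3 libraries against 3 allow. As these shares nearly mirror each other, they are not separate results. NFATC1 was 0.573% ± 0.34 of the NFATC total in Control, 0.651% ± 0.063 with CoCl2 and 1.41% ± 0.093 with OD, so its OD level, though higher, was still a small part of the family.

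NFAT5, also called TonEBP, drives genes that let cells gather osmolytes and lies on the plus strand at chr16:69565094-69704666. Its level was 109, 137 and 136 CPM in Control, 266, 249 and 239 CPM with CoCl2, and 173, 183 and 158 CPM with OD. The 3 groups did not overlap, with Control lowest and CoCl2 highest. NFAT5 rose with CoCl2 by 0.98 (SE 0.0871, edgeR adjusted p = 1.46e-06) and with OD by 0.43 (SE 0.0872, edgeR adjusted p = 0.0014). The CoCl2 change sat just under the fold needed for a call and passed it without Control replicate 2 (1.03), Control replicate 3 (1.02) or CoCl2 replicate 3 (1.02) and with RLE factors (1.03), while by total count it was 0.47 (edgeR adjusted p = 0.000397). NFAT5 was also higher with CoCl2 than with OD after TMM scaling, by 0.55 (SE 0.085, edgeR adjusted p = 0.000136), but this difference was 0.0034 (edgeR adjusted p = 0.971) when scaled by total count, and its adjusted p ran from 7.09e-26 to 0.971 over the alternatives.

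RCAN1, the regulator of calcineurin, is induced by calcineurin and NFAT from its internal start and is known as a feedback inhibitor. The gene lies on the minus strand at chr21:34513142-34615113. Its level was 44.2, 43.8 and 44.6 CPM in Control, 115, 105 and 106 CPM with CoCl2, and 58.8, 51.8 and 55.7 CPM with OD. The groups did not overlap, and the control libraries were nearly identical. RCAN1 rose with CoCl2 by 1.29 (SE 0.0539, a 2.45-fold increase, edgeR adjusted p = 8.78e-32) and with OD by 0.33 (SE 0.0556, a 1.25-fold increase, edgeR adjusted p = 5.9e-07). CoCl2 gave the higher level of the 2 treatments, by 0.97 (SE 0.052, edgeR adjusted p = 4.94e-26). Scaled by total count, the CoCl2 change was 0.79, in the same direction but no longer a call. The counts do not tell the internal start shown above from the outermost one, and 13.2% of RCAN1 exonic bases are shared with other genes on the same strand.

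**Figure D2:**
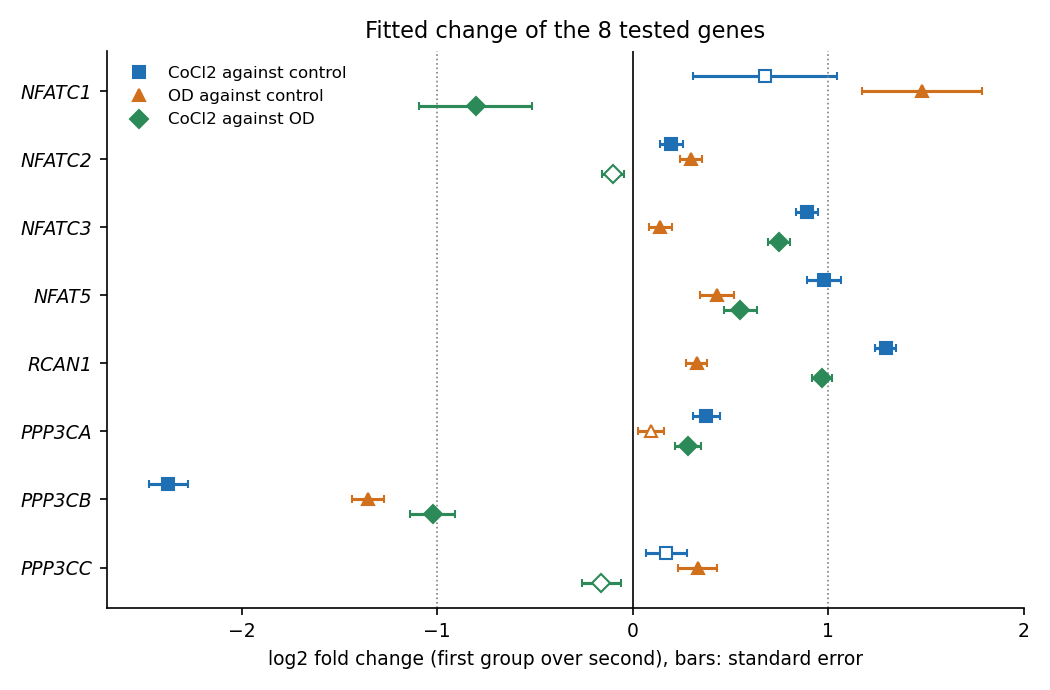
Log2 fold change of the 8 tested genes (rows) in the 3 comparisons, the first group over the second, with bars of 1 standard error and dotted lines at −1 and 1. Filled symbols have an edgeR adjusted p under 0.05 and open symbols do not. PPP3CB lies left of 0 in all 3 comparisons, RCAN1 passes 1 with CoCl2, and NFATC1 passes 1 with OD.

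The catalytic subunits went different ways, and PPP3CB had the largest change of the 8 tested genes in size with CoCl2. PPP3CB encodes the beta isoform of the catalytic subunit and lies on the minus strand at chr10:73436433-73496024. Its counts were 457, 620 and 541 in Control, 85, 77 and 101 with CoCl2, and 229, 253 and 222 with OD. In CPM these were 24.6, 30.4 and 30.4 in Control, 5.29, 5.96 and 5.30 with CoCl2, and 10.4, 11.2 and 11.8 with OD. The groups were well apart, with every OD library between the CoCl2 and control ranges. PPP3CB fell by 2.38 on the log2 scale with CoCl2 (SE 0.1, 5.19-fold lower, edgeR adjusted p = 1.52e-31) and by 1.36 with OD (SE 0.0823, 2.56-fold lower, edgeR adjusted p = 8.95e-23). It was lower with CoCl2 than with OD, at −1.02 (SE 0.115, edgeR adjusted p = 3.01e-12).

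Against Control, the direction and the call of PPP3CB held in all 17 alternatives, with log2 fold changes from −2.88 to −2.33 for CoCl2 and from −1.43 to −1.30 for OD. Between the treatments its adjusted p stayed under the threshold in all 17, while its size, from −1.57 to −0.98, fell on either side of the fold needed for a call. That call was lost without CoCl2 replicate 1, without CoCl2 replicate 3, without OD replicate 3 and with glmTreat, and with RLE factors RCAN1 was called higher in its place. PPP3CB shares 0.3% of its exonic bases with other genes.

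PPP3CA, the alpha isoform and the main catalytic subunit of brain, differed less between groups. Its level was 25.9, 30.7 and 27.1 CPM in Control, 37.1, 34.4 and 37.1 CPM with CoCl2, and 31.3, 29.6 and 28.5 CPM with OD. The CoCl2 libraries lay above the rest and the OD libraries overlapped the control libraries. PPP3CA was higher with CoCl2 by 0.38 (SE 0.0672, edgeR adjusted p = 8.9e-07) after TMM scaling and lower by total count (−0.13, edgeR adjusted p = 0.0738, the highest over 17 alternatives, the lowest being 5.76e-08). With OD the difference was 0.10, with a 95% interval from −0.04 to 0.23 (edgeR adjusted p = 0.206), and without Control replicate 2 it passed, at 0.17 (edgeR adjusted p = 0.0385, against up to 0.51 under other alternatives).

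PPP3CC, the gamma isoform, is known for its role in testis and sperm. Its counts were 179, 167 and 151 in Control, 142, 137 and 195 with CoCl2, and 245, 266 and 188 with OD. In CPM the means were 8.76 ± 0.765, 9.89 ± 0.931 and 10.98 ± 0.907 (SD, n = 3), and only the OD libraries stood clear of the control libraries. PPP3CC rose with OD by 0.33 (SE 0.0991, edgeR adjusted p = 0.00263). With CoCl2 the difference was 0.17, with a 95% interval from −0.04 to 0.39 (edgeR adjusted p = 0.126), and it was −0.33 by total count (edgeR adjusted p = 0.00426). Without CoCl2 replicate 1 it was 0.25 (edgeR adjusted p = 0.0434), and over 17 alternatives the adjusted p lay between 0.00426 and 0.472. On the opposite strand, 10.3% of PPP3CC exonic bases are shared with other genes.

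The make-up of the catalytic subunits within each library does not depend on the scaling. Per kilobase of exon, PPP3CB was 36.8%, 40.7% and 42.4% of the 3 subunits in the control libraries, 9.28%, 10.3% and 8.9% with CoCl2, and 17.2%, 18.4% and 20.7% with OD. The PPP3CA share went the other way, from 38.3% ± 1.6 in Control to 60.7% ± 2.9 with CoCl2 and 48.9% ± 1.5 with OD (SD, n = 3). PPP3CC took 21.8% ± 3.2, 29.8% ± 2.4 and 32.4% ± 1.7. No treated library overlapped the control libraries in any of these shares, and each comparison had an exact two-sided permutation p of 0.1, the smallest possible with 3 against 3. Shares add up to a fixed total, so a smaller PPP3CB share enlarges the others, and these tests are not independent. The level of PPP3CA itself did not pass with OD (log2 fold change 0.10, edgeR adjusted p = 0.206). PPP3CA and PPP3CB were thus near parity in Control, and PPP3CA was the largest part in all 6 treated libraries.

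**Figure D3:**
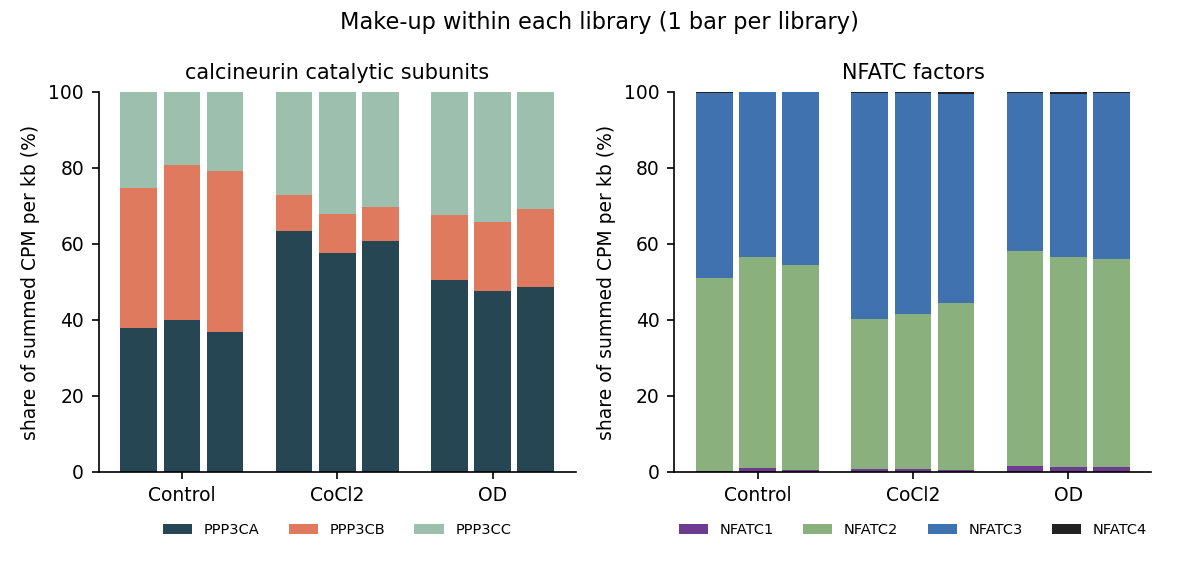
Share of the summed CPM per kilobase of exon, in percent, of the 3 calcineurin catalytic subunits (left) and the 4 NFATC genes (right), 1 bar per library. PPP3CB shrinks from 40.0% in Control to 18.8% with OD and 9.48% with CoCl2, and NFATC3 is over NFATC2 in the 3 CoCl2 libraries.

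By level per kilobase, RCAN1 (6.35 CPM per kilobase) and NFAT5 (6.28) led in Control and did not differ beyond their spread. PPP3CB (5.59), NFATC2 (5.42), PPP3CA (5.35) and NFATC3 (4.64) followed closely, and PPP3CC (3.02) lay below them. NFATC1 (0.0589) and NFATC4 (0.00812) were far lower. With CoCl2, RCAN1 was at 15.6, NFAT5 at 12.4 and NFATC3 at 8.59 CPM per kilobase, and PPP3CB, at 1.08, had moved below PPP3CC at 3.41. With OD, NFAT5 at 8.45 and RCAN1 at 7.96 led, and PPP3CB at 2.19 again lay below PPP3CC at 3.79.

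Around these genes, the partners of calcineurin held 1 called gene with CoCl2, beside 43.2% of all tested genes. Of 11 genes in this list (regulatory subunits, other inhibitors, anchoring proteins and immunophilins), 8 were tested, and the 1 called was AKAP5, an anchor that ties calcineurin to membranes. AKAP5 fell with CoCl2 by 1.45 (SE 0.0899, edgeR adjusted p = 4.53e-23), from 22.9 ± 1.26 CPM in Control to 8.42 ± 0.88 CPM, and was at 23.2 ± 0.808 CPM with OD (SD, n = 3). With OD, 0 of the 8 were called by edgeR and by DESeq2, beside 13.3% and 5.78% of all tested genes (all 9 libraries). By edgeR 5 had an adjusted p under 0.05, beside 65.6% of all tested genes, and the same number an unadjusted one. The list median was −0.00263 with CoCl2 and 0.14 with OD. PPP3R1, the regulatory B subunit that pairs with the catalytic subunits, was looked at for that role after its values were seen. It was higher with CoCl2 by 0.52 (SE 0.071, edgeR adjusted p = 1.72e-09), and with OD it differed by 0.10 (edgeR adjusted p = 0.21). The testis form PPP3R2 had 3, 2 and 1 counts per group, and RCAN2 had 0 in every library.

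Of the 13 genes of calcium entry and sensing, all tested, 5 were called lower and 0 higher with CoCl2 by edgeR, beside 23.4% lower and 19.9% higher of all tested genes. By adjusted p alone 10 were lower and 2 higher, beside 42.8% and 40.4% of all tested genes, and the list median was −0.95 beside −0.05. The 2 higher were the phospholipase C genes PLCG1 (0.53) and PLCG2 (0.34), looked up after their values were seen. Among them were the calcium release channels ITPR2 (fell by 1.31) and ITPR3 (fell by 1.06), and the store-operated channels ORAI2 (fell by 1.32) and ORAI3 (fell by 2.05). With OD the median was 0.29 and 1 of the 13, ORAI3, was called (13.3% of all tested genes), higher by 1.32 (SE 0.268, edgeR adjusted p = 1.6e-05). ORAI3 counts were 14, 12 and 19 in Control, 2, 2 and 5 with CoCl2, and 52, 31 and 43 with OD, so the treatments lay on opposite sides of Control. The test between the treatments gave −3.37 for ORAI3 (SE 0.393, edgeR adjusted p = 6.94e-12), and ITPR1 was also called lower with CoCl2 than with OD, at −1.05 (SE 0.099).

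Among 12 genes, the kinases and the nuclear exporter XPO1, that return NFATC proteins to the cytoplasm, the median was 0.81 with CoCl2 and −0.03 with OD. DYRK1A rose with CoCl2 by 1.78 (SE 0.0521, edgeR adjusted p = 4.47e-40), from 46.6 ± 1.54 to 161 ± 10.5 CPM, and was at 45.9 ± 1.53 CPM with OD (SD, n = 3). The casein kinase gene CSNK1D rose by 1.20 and GSK3A by 1.18, while DYRK1B fell by 1.10. With CoCl2, 3 of the 12 were thus called higher and 1 lower, beside 19.9% and 23.4% of all tested genes. Scaled by total count, 1 of the 12 was called higher and 2 lower with CoCl2, beside 48.1% of all tested genes in either direction, and the median was 0.31. With OD, 0 of the 12 were called by edgeR and by DESeq2, beside 13.3% and 5.78% of all tested genes (all 9 libraries). By edgeR 8 had an adjusted p under 0.05, beside 65.6% of all tested genes, and the same number an unadjusted one. XPO1 was called higher with CoCl2 than with OD, by 1.37 (SE 0.0646, edgeR adjusted p = 2.4e-12).

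Of 15 genes named as targets of calcineurin and NFAT, mostly from T cells, 4 passed the filter. NR4A1, an orphan nuclear receptor, rose with both treatments, by 1.85 with CoCl2 (SE 0.0593, edgeR adjusted p = 6.88e-38) and by 1.27 with OD (SE 0.0601, edgeR adjusted p = 4.26e-28). EGR2, a zinc-finger factor, had 2, 7 and 5 counts in Control, 31, 26 and 34 with CoCl2, and 5, 6 and 5 with OD. It passed the filter only through the CoCl2 libraries, where it was high, so its change is given as a description. The log2 fold change of EGR2 was 2.91 with CoCl2 (SE 0.355) and 0.04 with OD (SE 0.536). IL2, IFNG, CD40LG and IL3 had 0 counts in every library. PTGS2, the inducible cyclooxygenase, fell with CoCl2 by 0.57 (SE 0.0674, edgeR adjusted p = 1.62e-11) and rose with OD by 0.36 (SE 0.06, edgeR adjusted p = 3.32e-07), and EGR3 differed by 0.52 and 0.87, both looked at after their values were seen. NR4A1 and EGR2 are also immediate early genes that respond to many stimuli.

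The genes of the tonicity response, which NFAT5 is known to drive, were looked at in the same way. With CoCl2, 2 of 7 tested genes were called, both higher, and the median was 0.74. Of all tested genes, 43.2% were called in either direction and 19.9% higher. They were the aldose reductase gene AKR1B1 (1.36, SE 0.0494) and the heat shock gene HSPA1B (6.51, SE 0.0588), which also belongs to the general heat shock response. With OD the median was −0.11, and 1 of 7 was called, higher, beside 13.3% of all tested genes in either direction and 9.09% higher. It was SLC6A12, the betaine transporter. SLC6A12 had 20, 24 and 21 counts in Control, 16, 9 and 16 with CoCl2 and 87, 101 and 90 with OD, a rise of 1.94 with OD (SE 0.191, edgeR adjusted p = 7.4e-14). Between the treatments, 3 of the 7 were called higher with CoCl2 and 1 lower, beside 17.5% and 23.8% of all tested genes. The 3 were HSPA1B, AKR1B1 and HSPA4L, the last by 1.23 (SE 0.101), and the 1 lower was SLC6A12.

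AP-1 proteins bind DNA next to NFAT. With CoCl2, 5 of the 7 AP-1 genes were called, all higher, beside 19.9% higher of all tested genes, with a median of 3.24. They were FOSB (5.42), FOS (4.83), FOSL1 (3.73), JUNB (3.24) and JUN (1.72). With OD, 3 of 7 were called, also higher, beside 9.09% of all tested genes, with a median of 0.68. They were FOSB (1.94), FOS (1.57) and JUNB (1.36). By edgeR adjusted p alone all 7 were higher with CoCl2 and 6 with OD, FOSL1 being at 0.11 with OD (edgeR adjusted p = 0.256).

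**Figure D4:**
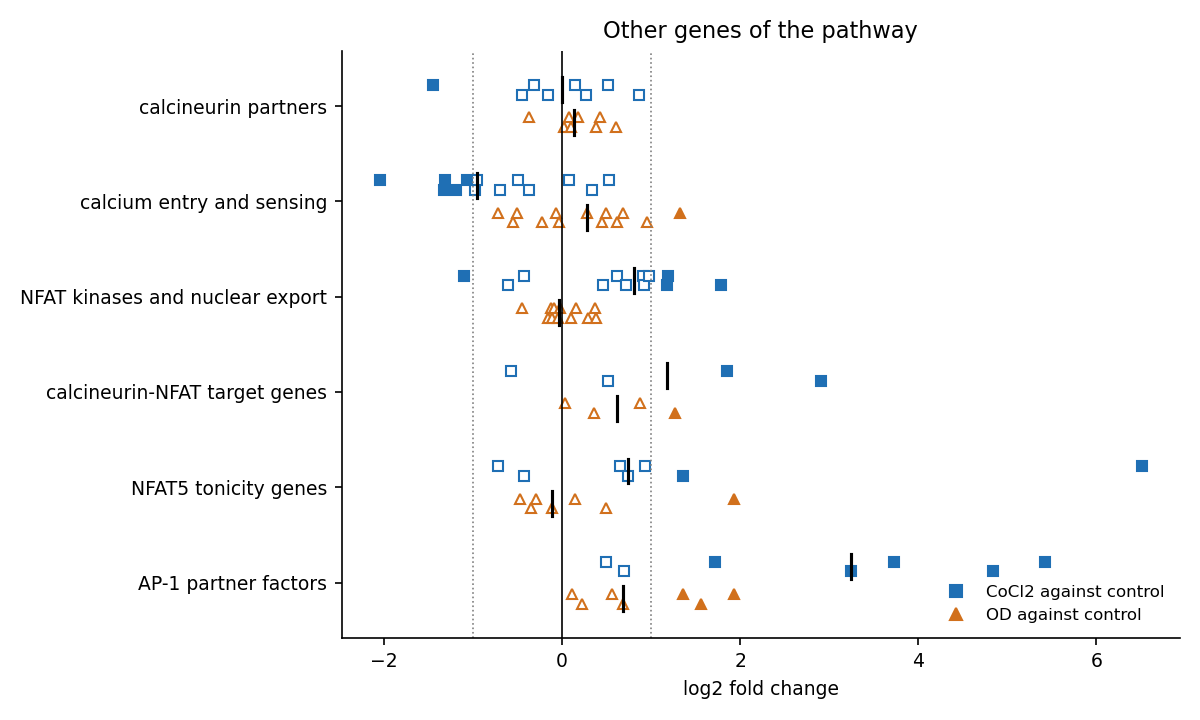
Log2 fold change of each tested gene in 6 lists around calcineurin and NFAT, with CoCl2 (squares) and OD (triangles) against the same control libraries. Filled symbols are called, the black tick is the list median, and dotted lines stand at −1 and 1. With CoCl2, 10 of the 13 calcium entry genes lie left of 0 with an adjusted p under 0.05 (list median −0.95), and the AP-1 medians are 3.24 with CoCl2 and 0.68 with OD.

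ITGA5, an integrin subunit that forms the fibronectin receptor, and PLAUR, the receptor of urokinase, were chosen by the study partly on these samples. It also drew on differentiated Caco-2 cells and on the epithelium of patients with inflammatory bowel disease. The study proposed NFATC1 as their regulator from a network tool, correlations in colorectal cancer samples and its tendency to rise in treated Caco-2 cells. The direction of ITGA5 and PLAUR here is therefore no independent evidence. ITGA5 was at 21.96 ± 1.19 CPM in Control, 52.9 ± 1.4 CPM with CoCl2 and 73.9 ± 4.42 CPM with OD (SD, n = 3). It rose with CoCl2 by 1.27 (SE 0.0638) and with OD by 1.75 (SE 0.0603), and OD gave the higher level (CoCl2 over OD −0.48, SE 0.0548, edgeR adjusted p = 3.91e-12). PLAUR had 30, 50 and 43 counts in Control, 247, 214 and 283 with CoCl2 and 289, 263 and 250 with OD. It rose by 2.84 with CoCl2 (SE 0.13) and by 2.55 with OD (SE 0.13). PLAUR was higher with CoCl2 than with OD by 0.29 after TMM scaling (SE 0.0905, edgeR adjusted p = 0.00277) and lower by total count (−0.25, edgeR adjusted p = 0.00953), with adjusted p from 0.000704 to 0.0492 over the alternatives. After TMM scaling the order of the groups was thus Control, CoCl2, OD for ITGA5 and NFATC1, and Control, OD, CoCl2 for PLAUR. For NFATC1 the first step did not pass the test, and the second did not pass with DESeq2 (adjusted p = 0.109 on all 9 libraries). Whether NFATC1 acts on either gene was not tested.

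The genes most like each of these in pattern were found by Pearson's correlation of log2 CPM over the 9 libraries among 13428 genes (13429 for NFATC1), a description in which all points share their group. RCAN1 was closest to HJURP (r = 0.9991), UCA1 (0.9988) and OSBP (0.9982). PPP3CB was closest to DEPDC1 (0.9979), HELLS (0.9968) and MYEF2 (0.9967). The sparse NFATC1 was closest to GXYLT1 (0.9675), IZUMO1 (0.9662) and BBX (0.9592). NFATC3 was closest to AL591135.1 (0.9975), EIF2A (0.9966) and KDM6A (0.9965), and NFAT5 to TRIM54 (0.9918), TMEM209 (0.9917) and ZC2HC1A (0.9911). The closest genes were SOS2 (0.957), ZNF28 (0.9545) and SCN3B (0.9468) for NFATC2, PLPPR2 (0.9772), AL139002.1 (0.9669) and CTU1 (0.9646) for PPP3CA, and HERC2P3 (0.9296), GDPD3 (0.926) and IL23A (0.923) for PPP3CC.

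The cells carried the markers of their label. All 7 intestinal epithelial markers were tested, and their summed level was 9990 to 10500 CPM in Control, 11700 to 12600 CPM with CoCl2 and 9460 to 9980 CPM with OD. Of the 7, VIL1 (villin) and KRT20 fell with CoCl2, by 2.45 and 1.44. The 7 lymphocyte markers, which mark the cells where NFAT is best known, had at most 8 counts in any library, with CD2 and MS4A1 at 0 in all. Their summed level was 0.161 to 0.337 CPM in Control, 0.472 to 0.696 CPM with CoCl2 and 0.5 to 0.905 CPM with OD. This sum lay higher in all 6 treated libraries than in any control library, and its part in the NFATC1 and NFATC4 results was not tested. Of 5 myeloid markers 4 were tested, at 42.2 to 48.5, 63.1 to 68.7 and 55.3 to 58.9 CPM in the same order, most of it LYZ in Control, and of 6 fibroblast and endothelial markers 4 were tested, at 25.1 to 29.2, 19.5 to 22.3 and 33.4 to 34.7 CPM. Of the myeloid markers, CSF1R was called higher with OD (2.08) and CD14 lower (−1.08), while LYZ was at −0.05. In bulk RNA, fewer cells with a transcript and less of it per cell cannot be told apart.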

How the data were processed

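Messenger RNA was measured in 9 stranded single-end libraries (TruSeq Stranded mRNA) of uCaco-2 cells, 3 per group. The authors trimmed reads with cutadapt 2.10, checked them with FastQC 0.11.9 and aligned them with STAR 2.7.5b to GRCh38.p13, and deposited a table of raw gene counts. How reads were assigned to genes, and with which strand setting, is not given in the sources used here. Library totals were 15998136 to 24209427 counts, and genes of a few counts carry the wide errors given with them.

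Counts were filtered with filterByExpr (edgeR 4.0.16, R 4.3.3), scaled by TMM, and fitted over all 9 libraries by group with the robust quasi-likelihood test and Benjamini-Hochberg adjustment over all 15944 genes. The filter asked for about 0.547 CPM in 3 libraries, and NFATC1 reached this in 2 Control, 3 CoCl2 and 3 OD libraries. The fitting code was tested on simulated data. P-values set the difference between groups against the spread between these libraries, which all come from a single cell line. Replicates of a group differed by more than sampling noise (chi-square per degree of freedom 1.82 to 3.32). Levels per kilobase used merged exon lengths of GENCODE v44, on the same assembly. Members and lists were chosen with earlier results of these data known. The genes named are the 9 members, ITGA5, PLAUR, list genes called in a comparison or too sparse to test, and the 3 genes closest in pattern to each member. Of the called list genes, 1 is counted but not reported here. Alternatives were DESeq2 1.42.0, other scalings and filters, glmTreat, a replicate block and leaving out each library.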

Additional observations from a re-analysis of the deposited data

How the results depend on the processing

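Of 507 log2 fold changes of the members, ITGA5 and PLAUR under the alternatives, 480 kept their direction and side of the threshold, 11 lost and 11 gained significance, and 5 turned. The cause of each change below was not tested unless stated. By total count alone, NFATC2, PPP3CA and PPP3CC turned to −0.31, −0.13 and −0.33 for CoCl2 against Control, and PPP3CA and PLAUR to −0.26 and −0.25 for CoCl2 against OD. The number of members called for CoCl2 against Control, 2, became 1 by total count, 6 by adjusted p alone, and 2 to 4 when 1 library was left out, with 4 without Control replicate 2. For OD against Control, 2 became 1 with at least 10 counts in every library, which removed NFATC1, 1 with glmTreat, which lost NFATC1, 7 by adjusted p alone, and stayed at 2 when any library was left out. For CoCl2 against OD, 1 became 2 by total count, 0 with edgeR's glmTreat (0 also at an unadjusted p under 0.05, and 1 with DESeq2), 6 by adjusted p alone, and 0 to 2 when 1 library was left out, with 2 without OD replicate 1. With RLE factors the call was RCAN1 in place of PPP3CB. With DESeq2 on all libraries the counts were 3, 3 and 1 of 9 genes, NFATC4 being added.

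With the replicate number as a block the counts of called members were 2, 2 and 1, with no call changed, and same-numbered libraries of different groups correlated between −0.00492 and 0.0376, so the numbers were not treated as pairs. NFATC4 without a filter had an edgeR log2 fold change of 2.39 (adjusted p = 0.00263) with CoCl2 and 2.20 (adjusted p = 0.00839) with OD. NFATC1 and NFATC4 rest on few counts.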
